A study of Homo sapiens with 31 samples.

Results

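A set of 10 tubulin genes was followed through 4 groups of cultured human cancer cells profiled by RNA sequencing. They were chosen by name as the α-tubulins TUBA1A, TUBA1B, TUBA1C and TUBA4A and the β-tubulins TUBB, TUBB2A, TUBB2B, TUBB3, TUBB4B and TUBB6, and all 10 were found among the 19221 genes of the expression table. The 31 libraries came from the cisplatin-resistant line C13* carrying a control short hairpin RNA (C13* shCON, n = 7) or a hairpin delivered by lentivirus against CEBPB, the gene of the transcription factor C/EBPβ (C13* shCEBPB, n = 8), and from the ovarian carcinoma line A2780, either untreated (n = 8) or as an olaparib-resistant derivative raised by stepwise exposure to this PARP inhibitor (A2780 OlaR, n = 8). Neither the number of hairpins nor whether the infected or resistant cells were clones or pools was given in the labels used here. The design asks what loss of C/EBPβ changes in C13* and what acquired resistance changes in A2780.

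Microtubules are hollow polymers built from heterodimers of 1 α-tubulin and 1 β-tubulin, and they form the mitotic spindle, the tracks of intracellular transport and the core of cilia. Vertebrates carry several genes for each subunit, whose products, the isotypes, are nearly alike in the folded body and differ most in a short acidic tail at the carboxyl terminus, where many microtubule-associated proteins and modifying enzymes act. Taxanes bind β-tubulin, and in ovarian and other carcinomas the neuronal isotype TUBB3 is a much studied marker of response to them.

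The ends of the coding sequences show where many of the isotypes part. Over the whole coding sequence, pairs of β genes were 81.0% to 98.1% identical (15 pairs), and over the last 60 coding bases 49.2% to 96.7%. For pairs of α genes (6 pairs) these ranges were 84.4% to 97.2% and 53.6% to 100%. TUBA1A and TUBA1B were 100% identical over the last 60 coding bases, so those ends do not part them. The main transcript of each of the 10 genes has 4 exons, and all these ends lie in the last one. The 5′ to 3′ sense-strand ends of the β genes with clear expression are given from the GENCODE release 44 models on hg38, with the stop codon in capitals.
TUBB (chr6:30724338-30724397, plus strand): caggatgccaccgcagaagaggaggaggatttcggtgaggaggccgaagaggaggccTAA
TUBB4B (chr9:137243497-137243556, plus strand): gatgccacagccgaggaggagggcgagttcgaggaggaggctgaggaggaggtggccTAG
TUBB6 (chr18:12326071-12326130, plus strand): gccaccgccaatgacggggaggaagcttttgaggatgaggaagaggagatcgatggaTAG
TUBB2A (chr6:3153863-3153922, minus strand): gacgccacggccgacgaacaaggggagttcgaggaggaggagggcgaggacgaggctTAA
TUBB3 (chr16:89935745-89935804, plus strand): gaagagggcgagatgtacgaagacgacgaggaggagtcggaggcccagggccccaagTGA
The end of TUBB3 was 49.2% to 56.5% identical to those of the other β genes, whereas TUBB2A and TUBB2B differed little there (96.7% identity).

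Among the α genes the end of TUBA4A is shown because this isotype is known to lack the encoded terminal tyrosine that most α-tubulins carry.
TUBA4A (chr2:219250352-219250411, minus strand): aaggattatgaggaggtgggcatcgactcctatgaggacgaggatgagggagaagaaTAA
Sequence shared between genes limits how surely reads are assigned. Of all 100-base windows in the main TUBB3 transcript, 92.5% also occur in an annotated readthrough gene, ENSG00000198211, which shares 1584 exonic bases with TUBB3 on the same strand. Of the TUBB2A windows, 53.7% also occur in TUBB2B. Of the TUBA1B windows, 65.4% occur, in reverse, in its antisense gene TUBA1B-AS1, and the strand setting of the counting was not given in the sources used here. Windows also found in another gene made up 48.7% for TUBB2B, 31.6% for TUBA1C, 29.1% for TUBA4A, 21.7% for TUBB, 21.5% for TUBA1A and 4.71% for TUBB4B. For TUBA1A the gene sharing most windows is TUBA1B, with 17.9% of windows. For TUBA1C, TUBA4A and TUBB the gene sharing most windows overlaps on the opposite strand, with 19.8%, 27.1% and 18.2% of windows. The levels of all these genes are uncertain for this reason, but a share of windows does not measure the error of a level. No TUBB6 window was found in another gene.

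Before any isotype was compared, the labels were checked against the whole table. The libraries labelled C13* shCON and A2780 OlaR were nearly alike, with a median absolute difference of 0.12 in mean log2(FPKM + 1) over 12967 genes and 0.532% of genes at least 2-fold apart. FPKM is a fragment count scaled by the length of the gene and the total of the library. Each comparison of the design spanned more: 0.54 and 27.6% of genes between the libraries labelled shCON and shCEBPB, and 0.69 and 34.8% between those labelled A2780 and A2780 OlaR. Of the libraries titled C13* shCON, replicate 1 also carries A2780 as its cell line in another label field. Whether the labels or the lines account for these distances cannot be told apart here, so every difference below is one between libraries as labelled.

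CEBPB itself was at 85.8 ± 9.93 FPKM (SD, n = 7) in the libraries labelled C13* shCON and 47.1 ± 9.05 FPKM (n = 8) in those labelled C13* shCEBPB, a log2 fold change of −0.87 ± 0.11 (SE) with an adjusted p of 1.42e-06 by limma. The groups did not overlap. In the libraries labelled A2780 and A2780 OlaR it stood at 99.7 ± 7.63 and 112 ± 11.6 FPKM (n = 8 each), a log2 fold change of 0.16 ± 0.06 (0.28 relative to the median gene) that was called higher (limma, adjusted p = 0.0202) although those groups overlapped.

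The squamous keratinocyte markers KRT5, KRT14, TP63, KRT6A and DSG3 separated the groups along the same lines. Summed, all 5 gave 1551 to 1822 FPKM in the libraries labelled shCON and 1760 to 2129 FPKM in OlaR, against at most 0.316 FPKM in any library labelled shCEBPB or A2780. Of the 5 mesenchymal markers (VIM, CDH2, ZEB1, ZEB2, FN1), 3 were called higher and 2 lower with shCEBPB. Of all genes tested, 38.9% were called higher and 45.7% lower. The sum of the 5 rose from 32.8 to 38.0 FPKM in shCON to 350.0 to 378 FPKM. Most of it in shCEBPB was VIM, which rose from a mean of 9.82 to 342 FPKM, while CDH2 fell from 17.3 to 7.56 FPKM. In A2780 the mesenchymal sum was 857 to 899 FPKM and in OlaR 24.6 to 29.0 FPKM. Most of it in A2780 was VIM, which fell from a mean of 809 to 0.160 FPKM in OlaR. Of the 4 mesenchymal markers tested there, 3 were lower and 1 higher, FN1, which rose from 0.524 to 7.70 FPKM. Of all genes tested in OlaR, 49.7% were called lower and 40.1% higher. The immune marker PTPRC (CD45), a surface protein of leukocytes, was at 85.9 ± 7.94 FPKM in A2780 and 0.000789 ± 0.00223 FPKM in OlaR, while in A2780 the T-cell gene CD3E was listed at 0 in all 8 libraries. The part of line identity in the tubulin values below was not tested.

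Together the 10 tubulin genes summed to 2813 to 3097 FPKM in the libraries labelled C13* shCON, 3509 to 3856 FPKM in C13* shCEBPB, 1161 to 1230 FPKM in A2780 and 2680 to 2890 FPKM in A2780 OlaR. Of all FPKM, this was 0.675%, 0.845%, 0.281% and 0.629% on average. The A2780 libraries thus held the least tubulin mRNA and the shCEBPB libraries the most, with no overlap between these and any other group. In bulk RNA, fewer cells of a type and less RNA per cell cannot be told apart.

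**Figure D1:**
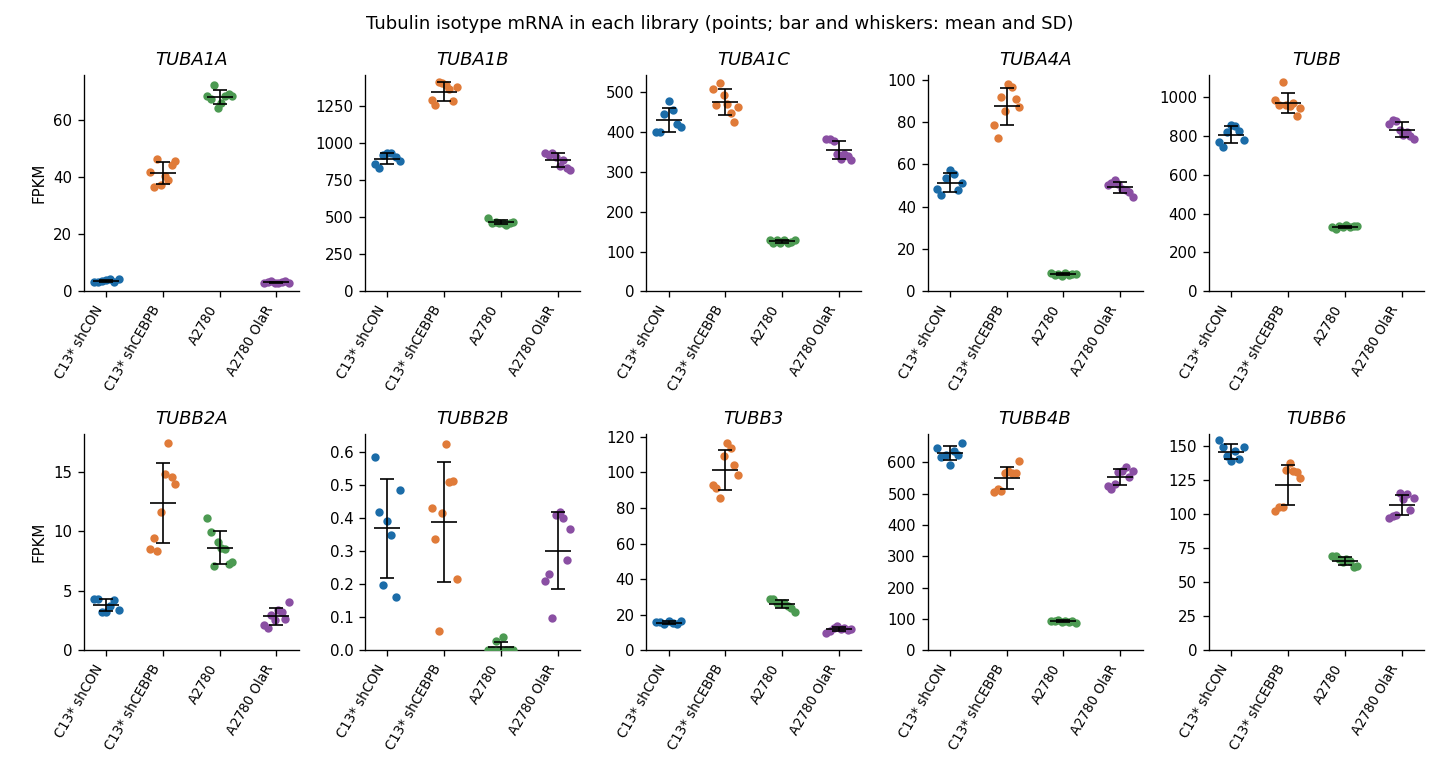
FPKM of each tubulin gene (vertical axes, linear and starting at 0) in every library, in 4 labelled groups of 7, 8, 8 and 8; bars and whiskers are the mean and SD. TUBA1A was high in the libraries labelled C13* shCEBPB and A2780, TUBB3 was highest in C13* shCEBPB (mean 101 FPKM), and TUBB4B was low in A2780 (mean 92.1 FPKM).

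In the comparison of C13* shCEBPB with C13* shCON, 9 of the 10 genes were tested, all but the barely expressed TUBB2B, and all 9 passed the limma test at an adjusted p under 0.05. TUBA1A, TUBB3 and TUBB2A rose at least 2-fold, TUBA4A, TUBA1B, TUBB and TUBA1C rose by less, and TUBB4B and TUBB6 fell. The background was high: of 12006 genes tested, 84.7% were called, 38.9% as higher and 45.7% as lower. The 7 of 9 called higher, the 2 called lower and the 3 at least 2-fold higher are to be read against those shares and against the 12.7% of genes called and at least 2-fold higher (16.7% at least 2-fold lower). The median log2 fold change of the 9 was 0.59, against −0.07 over all genes tested. In 7 of the 9 the groups did not overlap, as in 66.0% of all genes tested.

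In the comparison of A2780 OlaR with A2780 the same 9 genes were tested and all were called. TUBB4B, TUBA4A, TUBA1C and TUBB rose at least 2-fold, TUBA1B and TUBB6 rose by less, and TUBA1A, TUBB2A and TUBB3 fell at least 2-fold. Here 89.8% of 12458 genes were called, 40.1% higher and 49.7% lower, with 15.5% called and at least 2-fold higher and 20.1% at least 2-fold lower. The members' counts were 6 higher, 3 lower, 4 at least 2-fold higher and 3 at least 2-fold lower. In all 9 the groups did not overlap, as in 74.1% of all genes tested. The median log2 fold change was 0.93 for the 9 and −0.12 for all genes, and the latter moved to −0.01 when libraries were scaled by their median ratio, so the fold change of each member in this comparison is also given relative to the median gene.

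**Figure D2:**
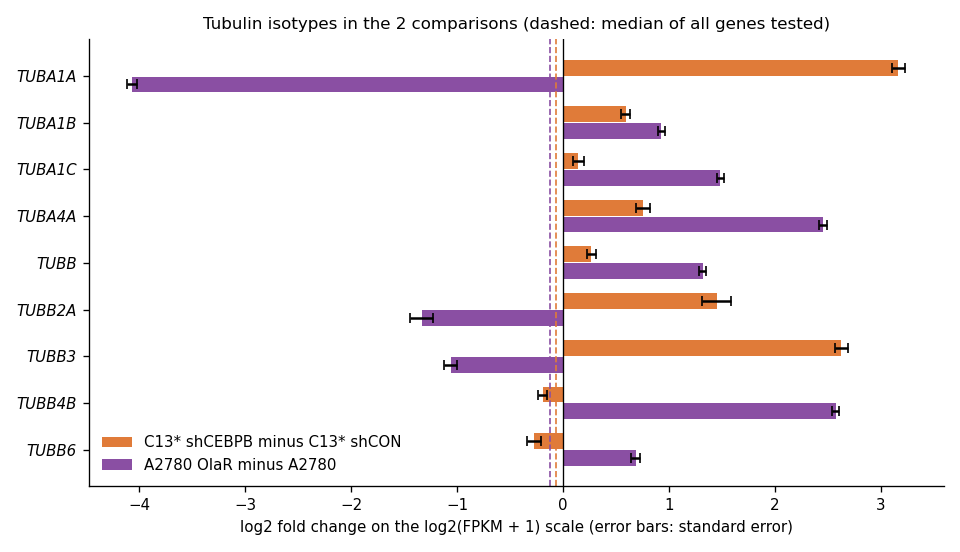
Log2 fold changes on the log2(FPKM + 1) scale (horizontal axis) of the 9 tested tubulin genes, with bars for C13* shCEBPB minus C13* shCON and for A2780 OlaR minus A2780, whiskers for the standard error and dashed lines for the median of all genes tested (−0.07 and −0.12). TUBA1A, TUBB2A and TUBB3 point to opposite sides in the 2 comparisons, and so do TUBB4B and TUBB6 in the other sense.

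Among the α-tubulins, TUBA1A, an isotype best known from the developing brain, had the widest range as a ratio of the highest to the lowest group mean. The lowest, median and highest library had 3.35, 3.61 and 4.21 FPKM in C13* shCON and 36.6, 41.3 and 46.5 FPKM in C13* shCEBPB. They had 64.4, 68.5 and 72.5 FPKM in A2780 and 2.82, 3.06 and 3.61 FPKM in A2780 OlaR. It was thus low in the libraries labelled shCON and OlaR, which overlapped, and high in every library of the other groups.

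The log2 fold change of TUBA1A was 3.16 ± 0.06 (SE) with shCEBPB (limma, adjusted p = 1.81e-18) and −4.07 ± 0.04 in OlaR (−3.95 relative to the median gene, adjusted p = 5.31e-24). In mean FPKM this was 11.1-fold higher and 21.7-fold lower. TUBA1B, which shares 17.9% of the TUBA1A windows, averaged 892 FPKM in C13* shCON and 884 FPKM in A2780 OlaR. The TUBA1A means there were 3.74 and 3.14 FPKM. Whether TUBA1B reads were counted in these low TUBA1A levels was not tested. In C13* shCEBPB its mean was 0.609 times that of A2780, and those groups did not overlap either.

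TUBA1B, the α isotype of most dividing cells, was the most abundant member in every group, taking 64.8% to 69.7% of the summed α FPKM on average. Its lowest, median and highest values were 833, 903 and 934 FPKM in C13* shCON and 1253, 1368 and 1409 FPKM in C13* shCEBPB. In A2780 they were 445, 463 and 492.5 FPKM, and in A2780 OlaR 820, 896 and 933 FPKM. TUBA1B rose in both comparisons, by 0.59 ± 0.04 (limma, adjusted p = 1.39e-10) and 0.93 ± 0.03 (1.04 relative to the median gene, adjusted p = 1.02e-15) on the log2 scale.

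TUBA1C, a close relative expressed in many tissues, ranged from 401 to 478 FPKM in C13* shCON and from 425 to 524 FPKM in C13* shCEBPB. These groups overlapped, and the log2 fold change of 0.14 ± 0.05 (limma, adjusted p = 0.0175) was called only narrowly. It was 0.27 (adjusted p = 0.00446) in the libraries numbered 1 to 3 in their codes and 0.06 (adjusted p = 0.352) in those numbered 4 to 8, and its adjusted p was 0.0568 after quantile normalization. From A2780 (121 to 130.0 FPKM) to A2780 OlaR (329 to 384 FPKM) TUBA1C rose by 1.49 ± 0.04 (1.60 relative to the median gene), with an adjusted p of 2.66e-18 by limma.

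TUBA4A, abundant in platelets and nerve, was a minor isotype everywhere. It spanned 45.3 to 57.4 FPKM in C13* shCON, 72.4 to 97.7 FPKM in C13* shCEBPB, 7.50 to 8.63 FPKM in A2780 and 44.7 to 52.5 FPKM in A2780 OlaR. All A2780 libraries lay far below the others. The log2 fold changes were 0.76 ± 0.07 (limma, adjusted p = 6.79e-09) and 2.45 ± 0.04 (2.57 relative to the median gene, adjusted p = 1.54e-21).

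Among the β-tubulins, TUBB, the major isotype of dividing cells, took 50.3% of the summed β FPKM in C13* shCON, 55.2% in C13* shCEBPB and in A2780 OlaR, and 63.4% in A2780. Its libraries ran from 743 to 857 FPKM in C13* shCON, from 901 to 1076 FPKM in C13* shCEBPB, from 323 to 340 FPKM in A2780 and from 782 to 881 FPKM in A2780 OlaR. TUBB rose by 0.26 ± 0.04 with shCEBPB (limma, adjusted p = 1.87e-05) and by 1.32 ± 0.03 in OlaR (1.44 relative to the median gene, adjusted p = 3.98e-19). Neither pair of groups overlapped. The rise with shCEBPB was 0.37 within the libraries numbered 1 to 3 and 0.19 within those numbered 4 to 8.

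TUBB4B, a broadly expressed isotype also found in cilia, came second among the β genes. The lowest, median and highest values were 593, 624 and 663 FPKM in C13* shCON, 506, 566 and 605 FPKM in C13* shCEBPB and 515, 561 and 584 FPKM in A2780 OlaR. In A2780 they were only 85.9, 92.6 and 95.7 FPKM. All A2780 libraries therefore fell below every other library, while the libraries labelled shCEBPB and OlaR overlapped.

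The rise of TUBB4B from A2780 to OlaR was 6.01-fold in mean FPKM (log2 2.57 ± 0.03, 2.69 relative to the median gene, limma adjusted p = 5.66e-23). TUBA4A rose by nearly the same factor, 6.03-fold. With shCEBPB, TUBB4B fell by 0.19 on the log2 scale (SE 0.04, limma adjusted p = 0.000584), and the groups overlapped. Within the libraries numbered 1 to 3 the log2 fold change was −0.30, and within those numbered 4 to 8 it was −0.13 (adjusted p = 0.000341 and 0.0201).

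TUBB3, the isotype of neurons, stood highest in C13* shCEBPB. Its lowest, median and highest libraries had 14.5, 15.7 and 16.3 FPKM in C13* shCON and 85.8, 101 and 116 FPKM in C13* shCEBPB. They had 21.8, 26.5 and 28.9 FPKM in A2780 and 9.84, 11.9 and 13.7 FPKM in A2780 OlaR. No 2 groups overlapped, in the order A2780 OlaR, C13* shCON, A2780 and C13* shCEBPB.

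The log2 fold change of TUBB3 was 2.62 ± 0.06 with shCEBPB (6.53-fold in mean FPKM, limma adjusted p = 2.30e-17) and −1.06 ± 0.06 in OlaR (−0.94 relative to the median gene, adjusted p = 4.09e-12). The fall in OlaR was −1.27 within the libraries numbered 1 to 3. Within those numbered 4 to 8 it was −0.937, just under 2-fold. Of the summed β FPKM, TUBB3 took 0.971% ± 0.0499 (SD, n = 7) in C13* shCON and 5.78% ± 0.568 (n = 8) in C13* shCEBPB. It took 4.93% ± 0.419 in A2780 and 0.791% ± 0.0702 in A2780 OlaR (n = 8 each). Of 8 neuronal markers, 2 rose, 1 fell and 5 were too low to test with shCEBPB, and their sum was 5.14 to 7.89 FPKM there against 4.80 to 6.14 FPKM in C13* shCON. In OlaR both that were tested fell, and the sum was 35.2 to 38.2 FPKM in A2780 against 1.69 to 2.32 FPKM in A2780 OlaR. In A2780 most of this was INA, a neuronal intermediate filament gene, whose mean was 32.8 FPKM there, 4.04 FPKM in C13* shCEBPB and 0.207 FPKM in C13* shCON. All A2780 OlaR libraries listed INA at 0. NEFL, a neurofilament gene, fell by 2.30 on the log2 scale with shCEBPB.

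TUBB2A, an isotype enriched in brain, was a low member with the same directions as TUBB3. The lowest, median and highest values were 3.22, 3.72 and 4.32 FPKM in C13* shCON and 8.34, 12.8 and 17.4 FPKM in C13* shCEBPB. They were 7.09, 8.56 and 11.1 FPKM in A2780 and 1.85, 2.81 and 4.01 FPKM in A2780 OlaR. The groups of each comparison did not overlap, and the log2 fold changes were 1.45 ± 0.14 (limma, adjusted p = 1.65e-08) and −1.33 ± 0.11 (−1.21 relative to the median gene, adjusted p = 4.86e-10). With shCEBPB the rise was 0.99 (just under 2-fold) within the libraries numbered 1 to 3 and 1.73 within those numbered 4 to 8, with adjusted p = 1.15e-05 and 5.14e-10 by limma.

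TUBB2B, its near twin from the same chromosome region and a gene of the developing brain, stayed below 1 FPKM in every library and did not pass the filter. It ranged from 0.163 to 0.585 FPKM in C13* shCON, from 0.0596 to 0.625 FPKM in C13* shCEBPB and from 0.0987 to 0.420 FPKM in A2780 OlaR. In A2780 it was listed at 0 in most libraries and reached 0.0402 FPKM at most. Without the filter the limma fit gave an adjusted p of 0.881 for shCEBPB against shCON and 7.13e-07 for OlaR against A2780, where the groups did not overlap.

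TUBB6, a divergent and widely expressed isotype, spanned 139 to 154 FPKM in C13* shCON and 103 to 137 FPKM in C13* shCEBPB, with no overlap. It spanned 61.0 to 69.2 FPKM in A2780 and 97.3 to 115 FPKM in A2780 OlaR, again with no overlap. The log2 fold changes were −0.27 ± 0.07 (limma, adjusted p = 0.00108) and 0.69 ± 0.04 (0.80 relative to the median gene, adjusted p = 8.48e-12). The fall with shCEBPB depended on the libraries used. It was −0.51 within those numbered 1 to 3 and −0.12 within those numbered 4 to 8 (adjusted p = 1.24e-05 and 0.0148).

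**Figure D3:**
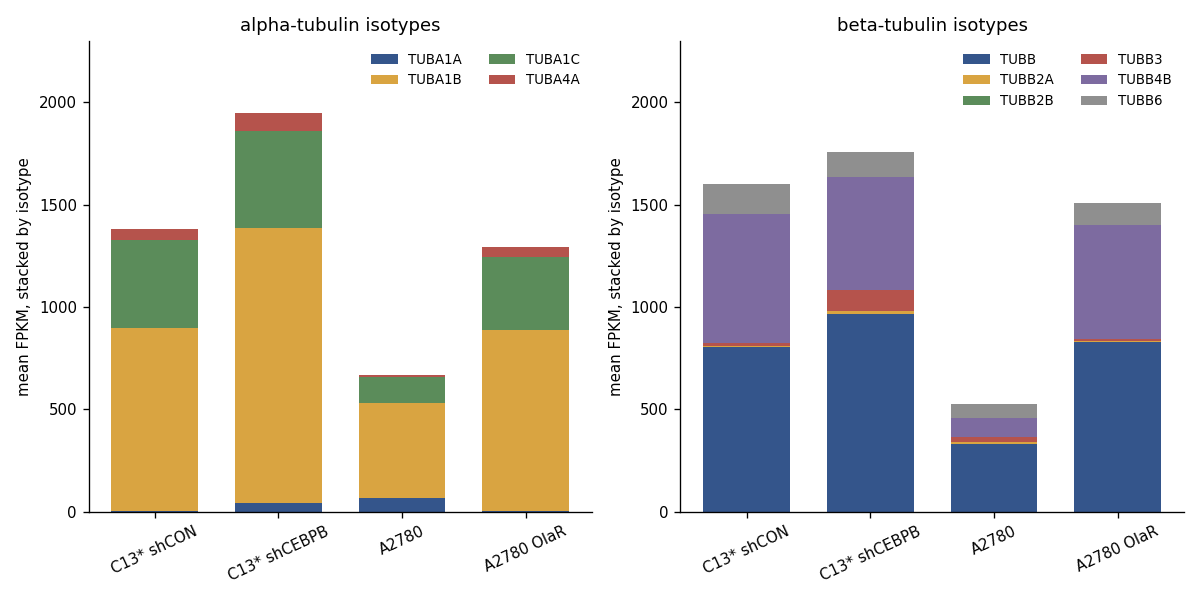
Mean FPKM of the 4 α genes (left) and the 6 β genes (right), stacked by isotype for the 4 labelled groups, with a common vertical axis from 0. The summed α mean ran from 667 FPKM in A2780 to 1949 FPKM in C13* shCEBPB, and the summed β mean from 525 to 1754 FPKM.

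FPKM is a value per length, so the pools of both subunits can be compared. The summed α members averaged 1378 ± 70.6 FPKM in C13* shCON, 1949 ± 84.5 FPKM in C13* shCEBPB, 667 ± 16.5 FPKM in A2780 and 1291 ± 69.1 FPKM in A2780 OlaR (SD). For the β members the sums were 1600 ± 36.8, 1754 ± 48.6, 525 ± 7.71 and 1506 ± 22.9 FPKM in that order. The α sum was below the β sum in all C13* shCON and A2780 OlaR libraries, with a ratio of 0.861 ± 0.0326 and 0.857 ± 0.0416, and above it in all C13* shCEBPB and A2780 libraries, with 1.11 ± 0.0298 and 1.27 ± 0.0268.

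The makeup of the pools also differed. TUBB4B took 39.3% ± 1.48 of the β sum in C13* shCON and 36.7% ± 1.73 in A2780 OlaR, but 31.4% ± 1.68 in C13* shCEBPB and 17.5% ± 0.451 in A2780. TUBA1A took 10.2% ± 0.359 of the α sum in A2780 and 2.13% ± 0.188 in C13* shCEBPB, against 0.271% ± 0.0233 and 0.243% ± 0.0259 in C13* shCON and A2780 OlaR. These shares rest on FPKM of genes that share sequence, as described above, and carry no test.

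Across the 10 genes the 4 groups gave 30 pairs of neighbours in the order of their means, of which 19 did not overlap and 11 did. Of all genes tested, 66.0% did not overlap between C13* shCEBPB and C13* shCON, and 74.1% between A2780 OlaR and A2780. Whether 19 of 30 exceeds the share of such neighbours among all genes was not tested. The neighbours A2780 OlaR and C13* shCON overlapped for TUBA1A, TUBA1B, TUBA4A, TUBB, TUBB2A and TUBB2B. For TUBB the exact permutation p between them was 0.230, for TUBA1B 0.716 and for TUBA4A 0.252, while TUBA1A, at 3.14 and 3.74 FPKM, gave an exact permutation p of 0.00777 despite the overlap. For TUBA1C, TUBB3 and TUBB4B, the C13* shCON libraries lay wholly above those of A2780 OlaR, at 1.22, 1.30 and 1.14 times their mean. TUBB6, where C13* shCEBPB stood between them, was at 106 and 146 FPKM in A2780 OlaR and C13* shCON, also without overlap. How many of all genes separate C13* shCON from A2780 OlaR in this way was not tested. The smallest exact p possible is 0.000311 for 7 against 8 libraries and 0.000155 for 8 against 8, and it was reached in each comparison that did not overlap.

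The change in one comparison differed from that in the other for all 9 tested genes, by the interaction contrast of a limma fit over all 31 libraries. This contrast called 89.1% of 12967 genes, so that 9 of 9 is near the background. The nearly alike groups labelled shCON and OlaR both enter it with a minus sign. Its signs, and opposite directions in the 2 comparisons, are therefore not separate readings of knockdown and of resistance. The differences, as the log2 fold change of shCEBPB against shCON minus that of OlaR against A2780, were positive for TUBA1A (7.23 ± 0.08), TUBB3 (3.68 ± 0.09) and TUBB2A (2.78 ± 0.18). They were negative for TUBB4B (−2.77 ± 0.05), TUBA4A (−1.70 ± 0.08), TUBA1C (−1.34 ± 0.06), TUBB (−1.05 ± 0.05), TUBB6 (−0.96 ± 0.08) and TUBA1B (−0.34 ± 0.05, which turned to 0.19 after quantile normalization).

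The number in the library code tracked part of the spread within groups. In the libraries labelled C13* shCEBPB, codes 1 to 3 and 4 to 8 did not overlap for 4 members, TUBB2A, TUBB3, TUBB4B and TUBB6, all higher in 4 to 8. In A2780 OlaR they did not overlap for 6 members, with TUBB2B, TUBB4B and TUBB6 higher and TUBA1B, TUBA1C and TUBB lower in 4 to 8. In A2780 TUBB3 and TUBB6 were lower in 4 to 8, and in C13* shCON no member was separated. Over 12967 genes the shares separated in this way were 47.0% in C13* shCEBPB, 51.5% in A2780 OlaR, 18.9% in A2780 and 4.86% in C13* shCON. What the numbers stand for is not stated in the labels.

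**Figure D4:**
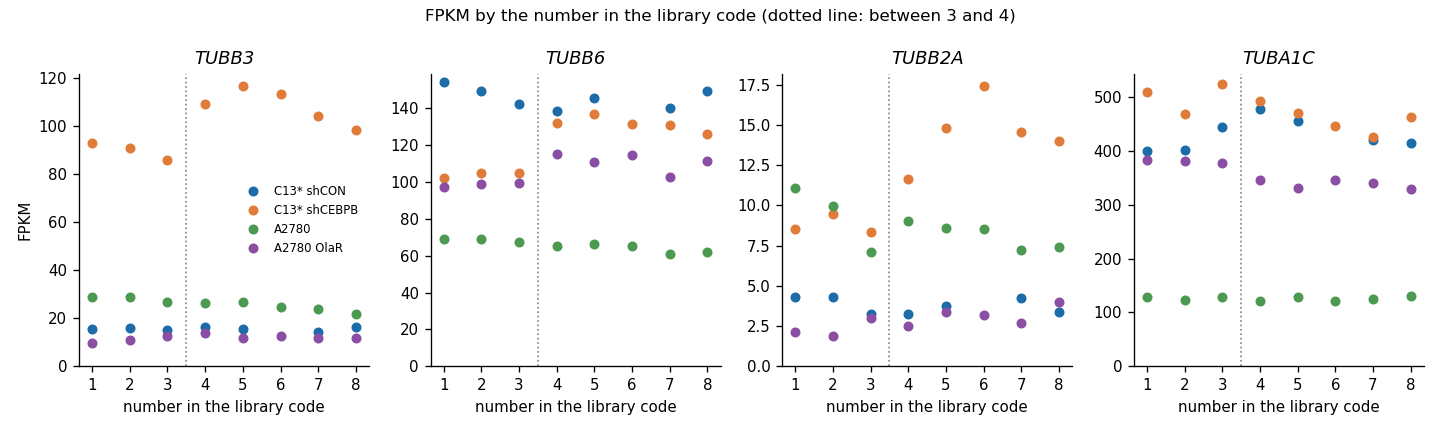
FPKM of TUBB3, TUBB6, TUBB2A and TUBA1C (vertical axes, linear from 0) against the number in the library code, coloured by labelled group; the dotted line lies between 3 and 4. In C13* shCEBPB, TUBB3 averaged 89.9 FPKM in codes 1 to 3 and 108 FPKM in 4 to 8, and TUBB6 104 and 132 FPKM.

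The counts of the gene lists that follow are to be read against the same shares of all genes, 38.9% called higher and 45.7% lower with shCEBPB and 40.1% and 49.7% in OlaR. Other tubulin genes were few and mostly low. Of 12 further α, β, γ, δ and ε genes, 6 were tested in each comparison. With shCEBPB 2 rose and 4 fell, and in OlaR 2 rose and 4 fell. TUBB4A, a β isotype of brain, had the same order of groups as TUBA1A, at 0.343 ± 0.0802 FPKM in C13* shCON, 5.97 ± 0.976 FPKM in C13* shCEBPB, 25.7 ± 2.17 FPKM in A2780 and 0.158 ± 0.0611 FPKM in A2780 OlaR. TUBG2, a γ-tubulin of the nucleating ring, fell from 20.1 to 8.84 FPKM with shCEBPB, and TUBG1 rose from 45.5 to 88.4 FPKM in OlaR.

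The γ-tubulin complex, which nucleates microtubules, had 1 of 9 genes higher and 5 lower with shCEBPB, and 5 higher and 2 lower in OlaR. TUBGCP3 rose in both, from 23.2 to 28.3 FPKM and from 13.3 to 29.4 FPKM. TUBGCP6 fell from 14.5 to 6.01 FPKM with shCEBPB, and NEDD1, which brings the complex to the spindle, fell from 28.3 to 17.3 FPKM in OlaR.

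Nascent tubulin is folded by prefoldin, the chaperonin CCT and the tubulin cofactors. Of 21 such genes, 10 rose, 1 fell and 10 were not called with shCEBPB, with a median log2 fold change of 0.07. CCT2 rose from 60.3 ± 1.59 to 164 ± 7.06 FPKM (log2 1.43 ± 0.04, limma adjusted p = 5.05e-17). In OlaR 8 rose and 11 fell, CCT5 rising from 154 to 323 FPKM and PFDN2 falling from 173 to 68.6 FPKM.

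Of 18 genes for enzymes that modify tubulin, 15 were tested with shCEBPB, where 3 rose and 11 fell (median log2 fold change −0.33, against −0.07 over all genes). VASH2, which with its partner removes the terminal tyrosine of α-tubulin, rose from 0.336 to 2.70 FPKM, and the polyglutamylase TTLL7 fell from 3.96 to 0.168 FPKM. In OlaR 5 of 16 rose and 10 fell (median −0.37, against −0.12). VASH1 fell there from 7.03 to 1.69 FPKM, and TTLL11 rose from 0.489 to 2.43 FPKM.

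Genes for proteins that stabilize microtubules gave 9 higher and 5 lower of 15 tested with shCEBPB, and 5 higher and 9 lower of 16 in OlaR. MAP7 rose in both comparisons, from 11.9 to 42.9 FPKM and from 1.67 to 12.9 FPKM. MAP2, the dendritic microtubule-associated protein, was at 228 ± 9.61 FPKM in A2780 and 1.80 ± 0.238 FPKM in A2780 OlaR (log2 −6.36 ± 0.05, limma adjusted p = 1.62e-26). MAPRE3, an end-binding protein, fell from 3.70 to 1.67 FPKM with shCEBPB.

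Among genes for destabilizing proteins 5 rose and 4 fell of 12 with shCEBPB, and 6 rose and 3 fell of 10 in OlaR. STMN3, a stathmin that sequesters tubulin dimers, was high where TUBA1A was low, at 32.4 FPKM in C13* shCON, 5.61 FPKM in C13* shCEBPB, 2.65 FPKM in A2780 and 20.9 FPKM in A2780 OlaR. The katanin genes KATNAL2 and KATNA1, whose products sever microtubules, rose from 0.184 to 1.82 FPKM with shCEBPB and fell from 19.0 to 6.07 FPKM in OlaR.

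Of 8 genes for transporters and enzymes that handle taxanes, 5 were tested with shCEBPB, where 3 rose and 2 fell. ABCB1, the drug efflux pump P-glycoprotein, rose from 0.0709 ± 0.0242 to 2.18 ± 0.536 FPKM (log2 1.55 ± 0.09, limma adjusted p = 7.10e-12), and the uptake carrier SLCO1B3 fell from 11.1 to 0.214 FPKM. In OlaR 3 of 4 rose and 1 was not called, ABCC2 rising from 0.952 to 19.97 FPKM. Levels this near 1 FPKM rest on few fragments, and fold changes on the log2(FPKM + 1) scale understate them.

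Proliferation genes mostly moved in the direction of TUBB4B and TUBB6 in both comparisons. They moved against most members with shCEBPB, where 7 of the 9 tested members rose. In OlaR 6 members rose and 3 fell. The 8 mitotic markers summed to 765 to 837 FPKM in C13* shCON, 550.1 to 622 FPKM in C13* shCEBPB, 398 to 418 FPKM in A2780 and 707 to 793 FPKM in A2780 OlaR. With shCEBPB 1 rose and 7 fell, among them CENPE, a spindle motor, from 19.9 to 8.07 FPKM. In OlaR 7 rose and 1 fell, and AURKA, a spindle kinase, rose from 24.6 to 93.1 FPKM. The part of proliferation in the tubulin values was not tested.

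The genes whose levels over the 31 libraries ran most like each member, by the root-mean-square difference of centred log2(FPKM + 1) against at least 12966 other genes, form a description of these 4 groups only. CKB, a creatine kinase, ran closest to TUBB3 (0.123), at 98.0, 550.4, 152 and 83.1 FPKM in C13* shCON, C13* shCEBPB, A2780 and A2780 OlaR. MTX3 ran closest to TUBA1A (0.128), CD9, a tetraspanin, to TUBB4B (0.131), SLC36A4 to TUBA4A (0.163) and DBN1, an actin-binding protein, to TUBB2A (0.191). The nearest genes to the more even members were WDR77 for TUBA1B (0.0742), NCAPG2, a condensin subunit, for TUBB (0.0723), EIF4A1, a translation helicase, for TUBA1C (0.0987), AHDC1 for TUBB6 (0.0902) and MICAL3 for TUBB2B (0.107). Next after these came CARMIL2 and OSBP2 for TUBB3, TLX3 and RBM24 for TUBA1A, and MROH6 and FN1 for TUBB4B.

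Since C/EBPβ is a DNA-binding factor, the promoters of the members were searched, in RefSeq windows of GRCh38.p14 from 250 bases before to 50 after the start of the main transcript. The letters TTGCNNAA, a core read by C/EBP factors, were found on either strand in 1 of 10 windows, that of the barely expressed TUBB2B, and in 10.5% of 35116 promoters of the same length. CCAAT, the site of the factor NF-Y, was found in 7 of 10 windows and in 34.6% of all promoters. GGGCGG, the GC box, was found in 8 of 10 and in 45.0%, and TATAAA in 1 of 10 and in 11.5%. No match of one motif overlapped a match of another in these windows. A match is a description of these letters and not evidence of binding.

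The windows of TUBA1A and TUBB4B are printed because, on the log2(FPKM + 1) scale, these genes had the greatest fall and the greatest rise among the 9 members tested in OlaR, with each CCAAT, read on either strand, in capitals.
TUBA1A promoter (chr12:49189031-49189330, minus strand): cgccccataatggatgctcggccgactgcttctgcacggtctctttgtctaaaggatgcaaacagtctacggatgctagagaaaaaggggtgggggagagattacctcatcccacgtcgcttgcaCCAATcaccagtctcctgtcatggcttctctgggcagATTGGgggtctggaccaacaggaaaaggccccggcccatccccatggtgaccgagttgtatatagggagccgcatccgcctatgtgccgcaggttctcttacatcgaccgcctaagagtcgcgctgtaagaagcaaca
TUBB4B promoter (chr9:137241037-137241336, plus strand): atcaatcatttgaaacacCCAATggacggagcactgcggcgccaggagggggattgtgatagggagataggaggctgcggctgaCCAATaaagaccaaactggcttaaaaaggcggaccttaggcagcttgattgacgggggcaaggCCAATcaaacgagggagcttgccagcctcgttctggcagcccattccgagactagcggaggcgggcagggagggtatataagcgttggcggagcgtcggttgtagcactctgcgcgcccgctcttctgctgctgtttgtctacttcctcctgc
The first window holds 2 such matches and the second 3, and neither holds the C/EBP letters.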

How the data were processed

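The authors sequenced paired-end mRNA libraries, aligned reads to hg38 with TopHat after FastQC, counted them per gene and tested with edgeR. Tool versions, gene annotation and the step giving FPKM are not given in the sources used here. The deposited table holds FPKM for 31 libraries, and no counts were used. With steps fitted to the lowest of these same values, 80.1% of 38498 low FPKM values lay within 0.1 of a whole-read step. Evenly spread values would give 20%, but the fit itself raises the share, so it is no test. Relative depth ran from 0.857 to 1.22, the highest 1.42 times the lowest. FPKM sums were 417556 to 454578. After 4 rows with repeated symbols were left out, 19221 genes remained. No libraries were identical, and the study calls them biological replicates. Each n counts libraries of a group as labelled. The p-values are set against the spread among those libraries, not among separately made knockdown or resistant lines. How many such lines lie behind a group is not given in the labels.

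Each pair of groups was tested with limma 3.58.1 in R 4.3.3 on log2(FPKM + 1), two-sided, over genes that reached 1 FPKM in a number of libraries equal to the size of the smaller group, with Benjamini-Hochberg adjustment over all of them and calls at an adjusted p under 0.05. The fit was tested on data with known answers. Single neighbouring groups were compared by two-sided exact permutation tests. Coding ends, overlaps and shared 100-base windows came from GENCODE 44, and promoters from RefSeq. Members and gene lists were chosen with earlier results of these data known. Genes were named from the 10 members, CEBPB and the nearest genes in pattern. Of each list, the called genes with the greatest rise and fall among those without overlap could be named. Not all such genes are named, while CD3E and the squamous and mesenchymal markers are named outside this rule. Neither protein sequences nor drug responses were analysed here. Some items are not reported here.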

Additional observations from a re-analysis of the deposited data

Results flagged for a closer look

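The change with shCEBPB and the change in OlaR differed by the interaction contrast for all 9 tested tubulin genes, each with an adjusted p under 0.05 by limma. The log2 fold change of the first minus that of the second was 7.23 for TUBA1A (adjusted p = 3.53e-38), 3.68 for TUBB3 (adjusted p = 1.25e-27) and 2.78 for TUBB2A (adjusted p = 1.00e-15). It was −2.77 for TUBB4B (adjusted p = 7.63e-31), −1.70 for TUBA4A (adjusted p = 3.92e-20), −1.34 for TUBA1C (adjusted p = 9.28e-20) and −1.05 for TUBB (adjusted p = 1.09e-19). For TUBB6 it was −0.96 (adjusted p = 5.20e-13) and for TUBA1B −0.34 (adjusted p = 1.71e-07). The contrast called 89.1% of all genes tested, and the libraries labelled shCON and OlaR were nearly alike. Both these groups enter the contrast with a minus sign, so it does not set knockdown apart from resistance. In 40 groups of libraries tested for a single far value, 0 were found, where chance gives about 1 in 20.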

How the results depend on the processing

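Direction and call of each tested tubulin gene were recomputed with other pseudocounts, filters, scalings and fits, within ranges of library codes, and without each library in turn. In A2780 OlaR against A2780, all 261 such values kept direction and call, as did 250 of 252 in C13* shCEBPB against C13* shCON. The exceptions there were TUBA1C after quantile normalization (0.15, adjusted p = 0.0568 by limma) and in codes 4 to 8 (0.06, adjusted p = 0.352). Of 342 values for the difference between the comparisons, 1 reversed, TUBA1B after quantile normalization (0.19, adjusted p = 0.00701); the cause was not tested. The median of all genes in the A2780 comparison moved from −0.12 to −0.02 without a filter and −0.01 with median ratio scaling.

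The replicate numbers are only shared numbers. The deviations of same-numbered libraries from their group means had a mean r of −0.15 over 7 pairs in C13* and −0.23 over 8 pairs in A2780, and 1 and 0 of them correlated best with their own number. With the replicate number as a block, 9885 genes were called in place of 10166, and 10960 in place of 11190, and every tubulin call kept its side. Without counts, the depth behind a value is known only in relative terms, which limits TUBB2B and other genes near 1 FPKM.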
